A study of Homo sapiens with 12 samples.

Results

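The 77 genes described here encode the proteins of the mitochondrial ribosome. They were taken by name from the 20375 genes of the deposited tables: every symbol made of MRPL or MRPS, a number and at most 1 letter from A to C. Of these, 49 carry the large-subunit prefix MRPL and 28 the small-subunit prefix MRPS. RNA was sequenced from PE/CA-PJ41, an established human cell line derived from an oral squamous cell carcinoma. The libraries fall into 3 groups of 4. The PRP group had received 10% platelet-rich plasma (PRP, plasma in which platelets are concentrated) over 48 h, and the plasma group 10% human plasma over 48 h. The control group had received neither, and its culture time and the donors of the plasma and PRP are not given in the sources used here. Nothing in the labels says that replicates came from separate cultures, so p-values reflect only how far these libraries scatter, perhaps for technical reasons.

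The mitochondrial ribosome makes a small set of proteins, all of them membrane subunits of the respiratory chain and the ATP synthase. Its rRNAs come from mitochondrial DNA, but each of its proteins is encoded in the nucleus, made in the cytosol and imported. Part of the set descends from bacterial ribosomal proteins, and the rest was added in mitochondria. The protein complexes that depend on this ribosome mix its products with nuclear-encoded subunits, so the 2 sources of subunits have to be matched.

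Library depth, in total estimated reads, was 36943548 to 41976136 with PRP, 36258955 to 41946780 with plasma and 40166503 to 41531218 in control. Mitochondrially encoded transcripts took 0.191% to 0.731% of reads with PRP, 0.216% to 0.769% with plasma and 0.287% to 0.969% in control, and the library numbered 1 had the lowest share in each group. At each replicate number the share was lower with PRP and with plasma than in control. All 10 squamous epithelial markers averaged 1 TPM or more in every group (TPM is a gene's length-corrected share of transcripts), among them KRT5 and TP63, as the label of the line calls for. The summed level of 6 leukocyte markers was 6.45 to 7.96 TPM with PRP, 6.01 to 7.62 TPM with plasma and 4.06 to 5.14 TPM in control. PTPRC averaged 0.0491 TPM with PRP, 0.0935 TPM with plasma and 0.621 TPM in control. The higher leukocyte sum with PRP and with plasma came almost wholly from 1 other marker of the 6. The summed level of 5 platelet markers was 0.309 to 0.424 TPM with PRP, 0.353 to 0.634 TPM with plasma and 0.438 to 0.693 TPM in control, nearly all of it ITGA2B, and PF4 and GP9 had 0 reads in all 12 libraries. The summed level of 5 erythroid markers was 1.05 to 2.83 TPM with PRP, 1.17 to 1.92 TPM with plasma and 1.38 to 2.68 TPM in control. It came from HBA1 and HBA2, near-identical genes between which reads may be split, while HBB and ALAS2 had 0 reads in all 12 libraries. The summed level of 5 fibroblast markers was 12.4 to 14.1 TPM with PRP, 13.5 to 16.3 TPM with plasma and 15.7 to 20.5 TPM in control. The lower fibroblast sum with PRP and with plasma came almost wholly from 1 of the 5, while the most abundant of them was not lower. The part of these marker transcripts or of the mitochondrial share in the results was not tested.

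The promoter regions of the members with the largest changes are shown first, so that the values below can be set beside sequence. They are the 4 largest rises (MRPL54, MRPL48, MRPL40, MRPL41) and then the 4 largest falls (MRPL34, MRPL45, MRPL49, MRPS15) with PRP against control. Each run is the 100 bases before the RefSeq start of the gene, on the gene's strand, from RefSeq's table for GRCh38.p14. Capitals mark the letters CCGGAAG (the core bound by ETS factors, GABP among them), GCATGCG (a core of NRF1 sites) or AAGATGG (a core of YY1 sites) on either strand.
MRPL54: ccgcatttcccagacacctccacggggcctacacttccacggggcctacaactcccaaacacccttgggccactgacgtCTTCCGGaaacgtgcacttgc
MRPL48: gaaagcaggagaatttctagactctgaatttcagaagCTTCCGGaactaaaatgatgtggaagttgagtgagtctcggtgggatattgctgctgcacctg
MRPL40: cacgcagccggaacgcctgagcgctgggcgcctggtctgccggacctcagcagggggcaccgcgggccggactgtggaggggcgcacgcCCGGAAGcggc
MRPL41: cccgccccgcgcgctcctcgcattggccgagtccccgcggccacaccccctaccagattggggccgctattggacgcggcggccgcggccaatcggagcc
MRPL34: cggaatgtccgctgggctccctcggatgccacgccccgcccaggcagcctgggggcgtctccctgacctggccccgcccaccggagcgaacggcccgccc
MRPL45: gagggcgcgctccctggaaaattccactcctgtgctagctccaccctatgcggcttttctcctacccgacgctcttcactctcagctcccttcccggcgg
MRPL49: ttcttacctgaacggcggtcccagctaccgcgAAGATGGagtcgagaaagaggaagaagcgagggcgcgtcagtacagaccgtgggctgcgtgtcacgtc
MRPS15: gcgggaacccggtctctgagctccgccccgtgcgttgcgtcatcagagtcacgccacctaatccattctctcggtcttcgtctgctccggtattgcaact

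These stretches are MRPL54 at chr19:3762582-3762681 (plus strand), MRPL48 at chr11:73787774-73787873 (plus strand), MRPL40 at chr22:19432445-19432544 (plus strand) and MRPL41 at chr9:137551779-137551878 (plus strand). The other 4 are MRPL34 at chr19:17292473-17292572 (plus strand), MRPL45 at chr17:38297068-38297167 (plus strand), MRPL49 at chr11:65122083-65122182 (plus strand) and MRPS15 at chr1:36464385-36464484 (minus strand). The ETS letters stood in 3 of the 4 genes that rose, ending 15 bases before the start in MRPL54, 57 in MRPL48 and 5 in MRPL40. The YY1 letters stood in MRPL49, and MRPL41, MRPL34, MRPL45 and MRPS15 held none of the 3 motifs in these 100 bases.

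Over the whole window of 300 bases, 250 before the start and 50 after it, 69 of the 77 genes had a sequence in the table. The ETS letters stood in 29 of the 69 (42.0%), against 19.6% of the 10102 promoters of tested genes and 10.7% of all 27305 promoters. The YY1 letters stood in 23 (33.3%), against 7.50% of tested and 6.06% of all promoters. For NRF1 the count was 7 (10.1%), against 6.34% and 4.13%. At least 1 motif stood in 45 (65.2%), against 29.5% and 18.9%. The last 3 letters of the ETS motif are the first 3 of the YY1 motif, but no member promoter held the 2 overlapping, while 9 held both apart. Without the 50 bases after the start the YY1 share was 10.1% of members, against 3.34% of tested genes, so most of its matches lay in the first transcribed bases.

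Split by the later result, the 34 matched members that rose with PRP held the ETS letters in 17, the YY1 letters in 8 and the NRF1 letters in 0. The 9 that fell held them in 2, 7 and 2, and the 26 that passed no threshold in 10, 8 and 5. In the 250 bases before the start the YY1 letters stood in 2 of the 34 and 2 of the 9. A match of letters is not a bound site, and binding was not measured.

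All 77 genes were measured well above the filter of at least 1 TPM in at least 4 libraries. The lowest value of any of them in any library was 9.16 TPM, and the smallest estimated count was 238 reads. Mean levels over the 12 libraries ran from 14.2 to 340.0 TPM with a median of 76.3 TPM, against 21.3 TPM for all 12517 genes tested. The large-subunit genes had a median of 85.0 TPM and the small-subunit genes 64.5 TPM. The 10 most abundant members carried 31.2% of the summed level. Replicates lay close together: the median coefficient of variation over the 77 genes was 3.95% with PRP, 4.34% with plasma and 4.68% in control.

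The most abundant members were MRPL11, MRPS24 and MRPL49, the last of which is described with the falls. MRPL11, which encodes a protein at the base of the stalk that recruits translation factors, was the highest in every group. MRPL11 had 367, 361, 361 and 373 TPM in the PRP libraries, 340.1, 363, 361 and 328 TPM in the plasma libraries and 301, 309.8, 307 and 308 TPM in the control libraries. The PRP and plasma libraries all lay above the control libraries, and the 2 treated groups overlapped. The log2 change of MRPL11 was 0.25 ± 0.03 (SE) with PRP (limma adjusted p = 3.55e-05) and 0.18 ± 0.03 with plasma (limma adjusted p = 0.000658). In a bulk sample, a lower level cannot be told apart from fewer cells of a kind or less RNA per cell. MRPS24, a relative of bacterial S3, was less clear. MRPS24 had 280.1, 269, 280.1 and 272 TPM in the PRP libraries, 272, 294, 269 and 272 TPM in the plasma libraries and 277, 253, 246 and 248 TPM in the control libraries. Control replicate 1 lay inside the range of both treated groups. Its log2 change was 0.11 ± 0.04 (SE) with PRP (limma adjusted p = 0.0425) and 0.11 ± 0.04 with plasma (limma adjusted p = 0.0342), and without 1 library at a time the call was lost in 8 of 12 fits with PRP (adjusted p up to 0.113) and in 4 of 12 with plasma (adjusted p up to 0.111). MRPS24 shares 23.2% of its exonic bases with the readthrough gene URGCP-MRPS24, from which its reads may not be told apart.

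Near the bottom of the scale were MRPS25, MRPL50 and MRPL1. Of its exonic bases, MRPS25 shares 22.2% with NR2C2. MRPS25 had 12.5, 16.8, 14.4 and 12.6 TPM in the PRP libraries, 15.0, 14.7, 16.8 and 10.7 TPM in the plasma libraries and 13.0, 14.2, 16.9 and 13.2 TPM in the control libraries. MRPL50 had 15.8, 15.2, 14.5 and 14.1 TPM in the PRP libraries, 15.4, 16.2, 15.2 and 16.0 TPM in the plasma libraries and 13.2, 14.6, 16.5 and 15.7 TPM in the control libraries. The groups overlapped for both genes and neither passed the threshold (limma adjusted p = 0.886 and 0.931 with PRP). MRPL1, a relative of the bacterial stalk protein L1, did rise. MRPL1 had 16.5, 16.1, 18.2 and 18.8 TPM in the PRP libraries, 17.4, 15.8, 16.8 and 15.4 TPM in the plasma libraries and 13.1, 14.0, 12.7 and 14.9 TPM in the control libraries. Every treated library lay above every control library. MRPL1 changed by 0.33 ± 0.07 (SE) with PRP (limma adjusted p = 0.00105) and 0.24 ± 0.07 with plasma (limma adjusted p = 0.00863) on the log2 scale, and the plasma call was lost without the 3 libraries numbered 1 (limma adjusted p = 0.0642).

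With PRP, 38 of the 77 genes rose and 9 fell at a limma adjusted p under 0.05. The 38 are 49.4%, against 21.7% of all tested genes that rose, and the 9 are 11.7%, against 31.5% of all tested genes that fell. With plasma, 35 rose (45.5%, against 20.3% of all tested genes) and 10 fell (13.0%, against 29.0%). The count that fell with plasma was 6 without control replicate 3, plasma replicate 3 or plasma replicate 4. The median log2 change of the 77 was 0.10 with PRP and 0.10 with plasma, against -0.06 and -0.05 for all tested genes. After centring each library on its median gene, 45 members rose and 6 fell with PRP, and 41 rose and 6 fell with plasma. Centring also moved the split of all called genes, to 54.0% higher with PRP and 54.1% with plasma, against 40.8% and 41.2% on the TPM scale. These 2 comparisons share their control libraries and are not independent of each other.

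All 4 PRP libraries lay above all 4 control libraries for 36 members (46.8%, against 19.0% of tested genes) and below them for 9 (11.7%, against 27.8%). With plasma the counts were 33 above (42.9%, against 18.2%) and 9 below (11.7%, against 25.7%). Most changes were small. With PRP, 2 members moved by at least 1 on the log2 scale and 10 by at least 0.5, and with plasma 0 and 8.

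**Figure D1:**
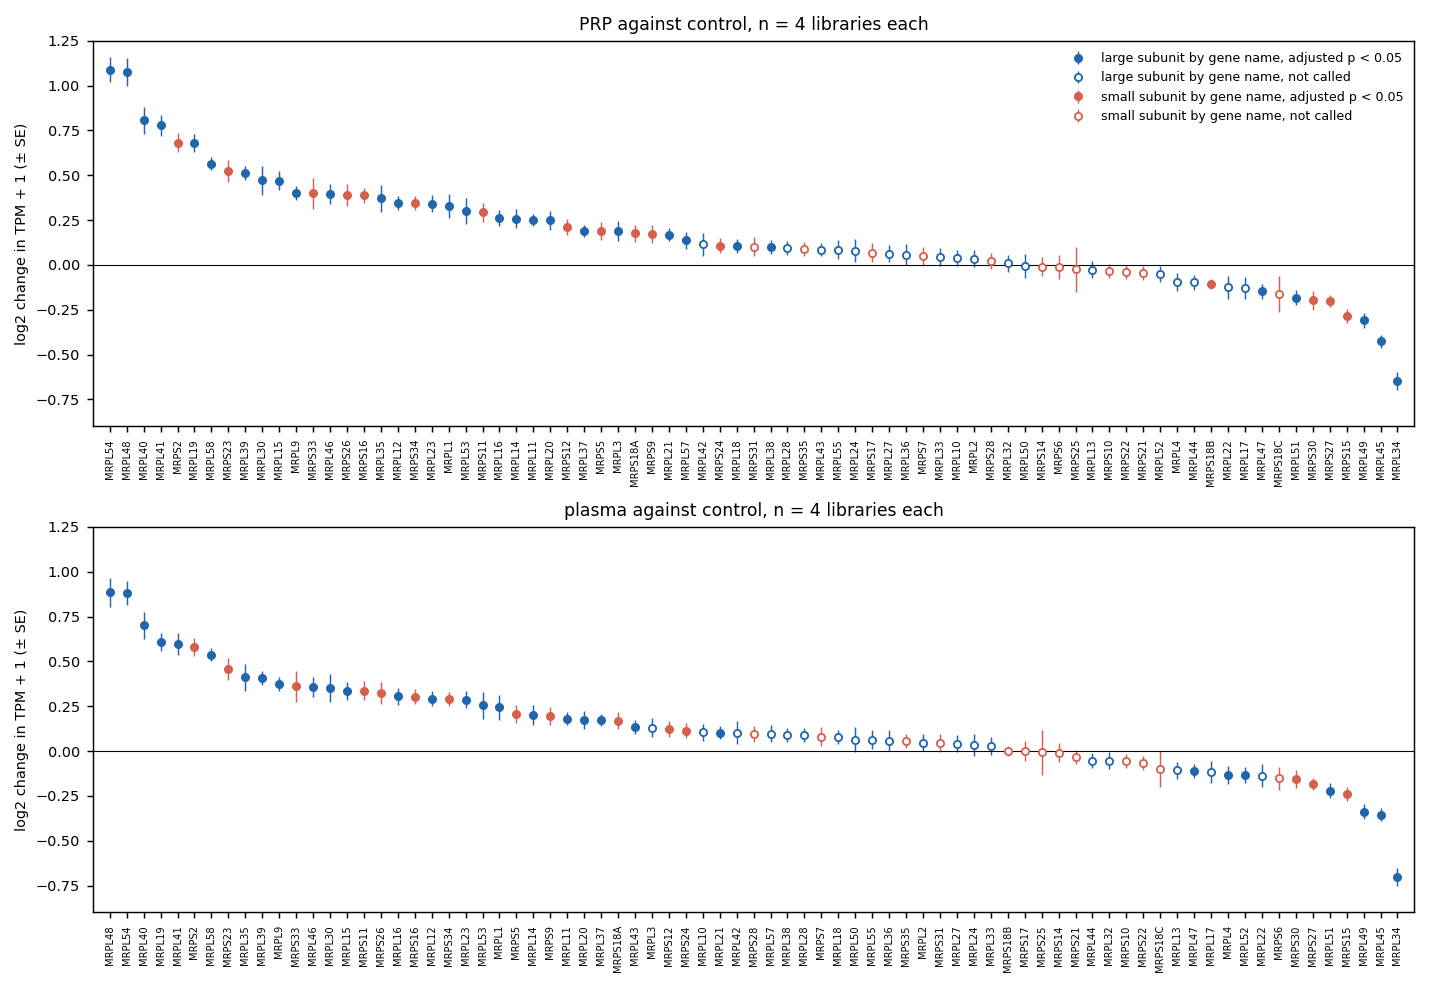
Each point is 1 of the 77 genes, ordered by its log2 change in TPM + 1 (y axis, bars are the SE) with PRP against control (top) and plasma against control (bottom), n = 4 libraries a group. Filled points passed limma's adjusted p under 0.05. With PRP 38 filled points lie above 0 and 9 below, and MRPL54, MRPL48 and MRPL40 lead while MRPL34 lies lowest in both panels.

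Most rises held whichever library or setting was changed. Of the 38 genes that rose with PRP, 34 were called higher in each of 11 other settings and each of 12 fits without 1 library, and 31 of the 35 were with plasma. Of the genes that fell, 6 of 9 with PRP and 5 of 10 with plasma were called in all of them. Estimated reads, tested with limma's voom instead of TPM, gave 43 higher and 6 lower with PRP and 41 and 6 with plasma. Of all tested genes voom called 7543 with PRP, 50.4% of them higher, and 7095 with plasma, 50.9% of them higher. Of the called members, 87.8% were higher with PRP and 87.2% with plasma. The same direction was called on both scales for 44 members with PRP and 40 with plasma.

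The largest rises were in mitochondria-specific proteins of the large subunit, which have no counterpart at the same place in the bacterial ribosome. MRPL54 (chromosome 19, 3762664 to 3768575 on GRCh38, by GENCODE 29) led with PRP and came just after MRPL48 with plasma. MRPL54 had 92.0, 85.8, 88.9 and 85.6 TPM in the PRP libraries, 77.4, 68.8, 74.9 and 83.8 TPM in the plasma libraries and 44.1, 44.0, 36.0 and 39.9 TPM in the control libraries. Both treated groups lay wholly above control, and PRP lay wholly above plasma. Its mean was 88.1 ± 2.998 TPM with PRP, 76.2 ± 6.21 TPM with plasma and 41.0 ± 3.89 TPM in control (SD, n = 4 each), and the log2 change was 1.09 ± 0.07 (SE) with PRP (limma adjusted p = 2.97e-08) and 0.88 ± 0.07 with plasma (limma adjusted p = 2.41e-07).

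MRPL48 (chromosome 11, 73787316 to 73865133) was the lowest of all members in control. MRPL48 had 20.6, 21.4, 25.1 and 23.2 TPM in the PRP libraries, 17.1, 20.7, 20.5 and 20.2 TPM in the plasma libraries and 9.16, 10.7, 11.1 and 9.79 TPM in the control libraries. Its treated libraries did not overlap control, and plasma replicate 1 stood below the other plasma libraries. MRPL48 changed by 1.08 ± 0.08 (SE) with PRP (limma adjusted p = 1.43e-07) and 0.89 ± 0.08 with plasma (limma adjusted p = 1.04e-06). Its effective length, the length that reads can come from, was estimated shorter in treated libraries, with a shift of -0.26 with PRP and -0.19 with plasma on the log2 scale, which raises TPM at equal reads. In reads the log2 change was 0.96 (limma voom adjusted p = 5.34e-07) with PRP and 0.82 (limma voom adjusted p = 3.57e-06) with plasma.

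MRPL40 (chromosome 22, 19431902 to 19436075) came next. MRPL40 had 50.3, 46.5, 52.3 and 52.9 TPM in the PRP libraries, 42.8, 41.5, 52.1 and 52.0 TPM in the plasma libraries and 28.5, 29.2, 26.3 and 29.8 TPM in the control libraries. Plasma replicates 1 and 2 lay lower than replicates 3 and 4, but all were above control. The log2 change of MRPL40 was 0.81 ± 0.08 (SE) with PRP (limma adjusted p = 1.14e-06) and 0.70 ± 0.08 with plasma (limma adjusted p = 5.2e-06). MRPL41 (chromosome 9, 137551199 to 137552555) was the fourth. MRPL41 had 122, 121, 118 and 115 TPM in the PRP libraries, 99.6, 103, 107 and 111 TPM in the plasma libraries and 80.0, 63.6, 66.0 and 67.5 TPM in the control libraries. The 3 groups did not overlap, with PRP highest and control lowest, and control replicate 1 was the highest of its group. MRPL41 changed by 0.78 ± 0.06 (SE) with PRP (limma adjusted p = 2.1e-07) and 0.60 ± 0.06 with plasma (limma adjusted p = 3.05e-06).

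MRPL58 (chromosome 17, 75012670 to 75021261) is a peptidyl-tRNA hydrolase that became part of the large subunit and can release chains from stalled ribosomes. MRPL58 had 98.0, 91.5, 97.2 and 97.6 TPM in the PRP libraries, 98.3, 91.1, 93.4 and 94.2 TPM in the plasma libraries and 65.0, 63.7, 65.7 and 64.0 TPM in the control libraries. Control libraries lay within a narrow band far below the treated ones. The log2 change was 0.56 ± 0.04 (SE) with PRP (limma adjusted p = 3.23e-08) and 0.54 ± 0.04 with plasma (limma adjusted p = 6.84e-08). A further mitochondria-specific gene, MRPL39, rose by 0.51 with PRP and 0.41 with plasma.

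**Figure D2:**
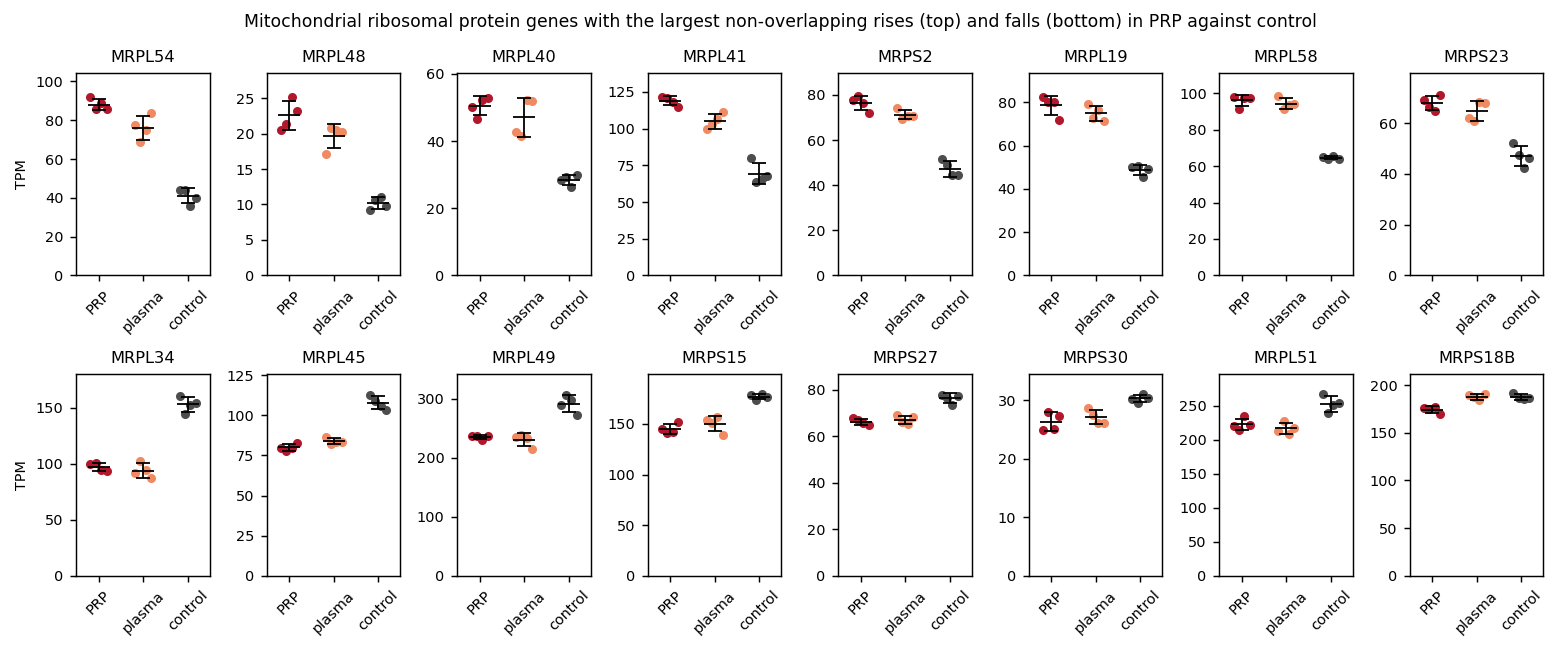
TPM (y axis, from 0) in each library of PRP, plasma and control for the 8 largest rises (top) and 8 largest falls (bottom) with PRP among members that passed the threshold and whose PRP and control libraries did not overlap. Points are libraries, bars the mean and SD of 4. In the top panels all control points lie below all treated points, and in the bottom panels all PRP points lie below all control points.

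Rises among large-subunit proteins with bacterial relatives were led by MRPL19 (chromosome 2, 75646783 to 75690851), a relative of L19, which lies where the 2 subunits meet in bacteria. MRPL19 had 82.3, 80.0, 80.1 and 72.1 TPM in the PRP libraries, 79.1, 72.9, 76.5 and 71.4 TPM in the plasma libraries and 50.03, 50.5, 45.5 and 49.1 TPM in the control libraries. No treated library overlapped control. MRPL19 changed by 0.68 ± 0.05 (SE) with PRP (limma adjusted p = 1.46e-07) and 0.61 ± 0.05 with plasma (limma adjusted p = 4.75e-07). MRPL30 (chromosome 2, 99181079 to 99197626), a relative of L30, followed by a narrow margin with PRP in TPM, but not with plasma and not in reads. MRPL30 had 39.7, 42.8, 40.9 and 41.7 TPM in the PRP libraries, 43.2, 40.3, 36.2 and 32.7 TPM in the plasma libraries and 26.2, 31.4, 28.9 and 31.7 TPM in the control libraries. Plasma replicate 4 was the lowest treated library and still lay above control. Its log2 change was 0.47 ± 0.08 (SE) with PRP (limma adjusted p = 0.000202) and 0.35 ± 0.08 with plasma (limma adjusted p = 0.00217), and in reads it was 0.33 (limma voom adjusted p = 5.26e-06) with PRP and 0.34 (limma voom adjusted p = 5.13e-06) with plasma.

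MRPL35 (chromosome 2, 86199355 to 86213794), a relative of L35, moved by a similar amount. MRPL35 had 59.0, 63.9, 64.6 and 62.6 TPM in the PRP libraries, 61.6, 63.4, 69.2 and 63.3 TPM in the plasma libraries and 49.8, 40.1, 55.3 and 48.4 TPM in the control libraries. Control spread most, with replicate 2 lowest, and did not overlap the treated groups. MRPL35 changed by 0.37 ± 0.08 (SE) with PRP (limma adjusted p = 0.000919) and 0.41 ± 0.08 with plasma (limma adjusted p = 0.00049). In reads the log2 change of MRPL35 was 0.29 with PRP and 0.29 with plasma. Its effective length was estimated shorter in treated libraries, with a shift of -0.16 with PRP and -0.20 with plasma on the log2 scale. MRPL12 (chromosome 17, 81703357 to 81707526) forms the stalk that recruits translation factors and also binds the mitochondrial RNA polymerase. MRPL12 had 169, 159.8, 162 and 153 TPM in the PRP libraries, 152, 164, 158 and 148 TPM in the plasma libraries and 131, 122, 127 and 127 TPM in the control libraries. All treated libraries were above control and the treated groups overlapped. The log2 change of MRPL12 was 0.34 ± 0.04 (SE) with PRP (limma adjusted p = 9.31e-06) and 0.29 ± 0.04 with plasma (limma adjusted p = 4.98e-05).

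MRPL18 (chromosome 6, 159789812 to 159798436) is a relative of L18, which binds 5S rRNA in bacteria. MRPL18 had 149.6, 156, 164 and 168 TPM in the PRP libraries, 154, 161, 156 and 154 TPM in the plasma libraries and 145, 144, 149.8 and 153 TPM in the control libraries. PRP replicate 1 lay inside the control range, and plasma lay just above it. The change passed the threshold with PRP and not with plasma, at 0.11 ± 0.04 (SE) with PRP (limma adjusted p = 0.0352) and 0.08 ± 0.04 with plasma (limma adjusted p = 0.115); the difference between the 2 treatments was 0.03 ± 0.04 (limma adjusted p = 0.937), and with PRP the call was lost in 4 of 12 fits without 1 library. In reads MRPL18 changed by 0.17 (limma voom adjusted p = 0.00869) with PRP and 0.14 (limma voom adjusted p = 0.0286) with plasma. MRPL44, which has a fold related to RNase III, did not pass. MRPL44 had 45.3, 46.0, 46.9 and 46.1 TPM in the PRP libraries, 50.6, 45.2, 46.6 and 48.0 TPM in the plasma libraries and 47.3, 49.8, 49.2 and 51.4 TPM in the control libraries. All PRP libraries lay below all control libraries and plasma overlapped both, and the log2 change was -0.10 ± 0.04 (SE) with PRP (limma adjusted p = 0.0654) and -0.05 ± 0.04 with plasma (limma adjusted p = 0.321).

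The small subunit had its largest rise in MRPS2 (chromosome 9, 135499984 to 135504673), a relative of S2, which joins the bacterial small subunit late. MRPS2 had 77.6, 79.7, 76.3 and 72.0 TPM in the PRP libraries, 74.2, 69.5, 70.5 and 70.6 TPM in the plasma libraries and 51.6, 49.0, 44.3 and 44.5 TPM in the control libraries. Treated libraries all lay above control. MRPS2 changed by 0.68 ± 0.05 (SE) with PRP (limma adjusted p = 1.64e-07) and 0.58 ± 0.05 with plasma (limma adjusted p = 8.75e-07). MRPS23 (chromosome 17, 57834781 to 57850056), mitochondria-specific, was next. MRPS23 had 68.9, 66.3, 64.9 and 71.0 TPM in the PRP libraries, 61.9, 60.8, 68.5 and 68.1 TPM in the plasma libraries and 52.2, 47.3, 42.3 and 46.3 TPM in the control libraries. Control replicate 1 was the highest control library, below every treated one. Its log2 change was 0.52 ± 0.06 (SE) with PRP (limma adjusted p = 8.63e-06) and 0.46 ± 0.06 with plasma (limma adjusted p = 3.55e-05).

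MRPS16 (chromosome 10, 73248843 to 73252693) is a relative of S16. MRPS16 had 114, 104, 108 and 105 TPM in the PRP libraries, 99.2, 108, 102 and 96.5 TPM in the plasma libraries and 84.7, 81.3, 80.0 and 81.7 TPM in the control libraries. Its groups were separate from control, and PRP and plasma overlapped. The log2 change of MRPS16 was 0.39 ± 0.04 (SE) with PRP (limma adjusted p = 3.7e-06) and 0.30 ± 0.04 with plasma (limma adjusted p = 4.29e-05). MRPS12 is a relative of S12, the protein at the decoding centre, and shares 16.3% of its exonic bases with SARS2. MRPS12 had 86.6, 88.3, 85.9 and 85.7 TPM in the PRP libraries, 84.2, 78.1, 83.8 and 79.6 TPM in the plasma libraries and 76.1, 68.6, 76.7 and 77.8 TPM in the control libraries. All treated libraries lay above control, plasma replicate 2 by a narrow margin. MRPS12 changed by 0.21 ± 0.04 (SE) with PRP (limma adjusted p = 0.00102) and 0.12 ± 0.04 with plasma (limma adjusted p = 0.0314), and the plasma call was lost in 3 of 12 fits without 1 library and without the 3 libraries numbered 1 (limma adjusted p = 0.103).

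Of the members that fell, MRPL34 (chromosome 19, 17292609 to 17306843), a relative of the small basic protein L34, fell most in both comparisons. MRPL34 had 99.7, 101, 94.7 and 93.4 TPM in the PRP libraries, 91.5, 102, 94.1 and 87.1 TPM in the plasma libraries and 160.4, 144, 153 and 155 TPM in the control libraries. All 8 treated libraries lay below the 4 control libraries by a wide gap. Its mean was 97.1 ± 3.62 TPM with PRP, 93.8 ± 6.45 TPM with plasma and 153 ± 6.73 TPM in control (SD, n = 4 each), and the log2 change was -0.65 ± 0.05 (SE) with PRP (limma adjusted p = 1.77e-07) and -0.70 ± 0.05 with plasma (limma adjusted p = 1.19e-07). MRPL34 shares 13.2% of its exonic bases with ABHD8, whose own log2 change was -0.57 with PRP and -0.45 with plasma, and reads on shared bases may not be told apart.

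MRPL45 (chromosome 17, 38297023 to 38323218) lies at the exit of the tunnel and ties the ribosome to the inner membrane. MRPL45 had 79.6, 77.8, 79.9 and 82.7 TPM in the PRP libraries, 86.8, 82.4, 83.4 and 83.7 TPM in the plasma libraries and 113, 109, 106 and 104 TPM in the control libraries. Treated and control libraries did not overlap. MRPL45 changed by -0.43 ± 0.04 (SE) with PRP (limma adjusted p = 4.39e-07) and -0.36 ± 0.04 with plasma (limma adjusted p = 3.08e-06). MRPL49 (chromosome 11, 65122183 to 65127371), mitochondria-specific, was the second most abundant member in control. MRPL49 had 237, 236, 229.7 and 236 TPM in the PRP libraries, 236, 237, 234 and 214 TPM in the plasma libraries and 288, 307, 297 and 273 TPM in the control libraries. Plasma replicate 4 was the lowest library, and control lay above all treated ones. Its log2 change was -0.31 ± 0.04 (SE) with PRP (limma adjusted p = 3.03e-05) and -0.34 ± 0.04 with plasma (limma adjusted p = 1.66e-05). MRPL49 shares 11.6% of its exonic bases with SYVN1, which changed by -0.32 with PRP and -0.22 with plasma.

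MRPL51 was lower on the TPM scale. It shares 31.3% of its exonic bases with NCAPD2, which passed in neither comparison. MRPL51 had 219.8, 214, 235 and 222 TPM in the PRP libraries, 213, 227, 209 and 218 TPM in the plasma libraries and 268, 239.6, 251 and 254 TPM in the control libraries. The highest treated library, PRP replicate 3, lay just under the lowest control library. MRPL51 changed by -0.18 ± 0.04 (SE) with PRP (limma adjusted p = 0.00184) and -0.22 ± 0.04 with plasma (limma adjusted p = 0.000526), but in reads by -0.05 (limma voom adjusted p = 0.399) with PRP and -0.10 (limma voom adjusted p = 0.0721) with plasma, so neither call was made in reads. MRPL52 passed with plasma and not with PRP. MRPL52 had 104, 101, 106 and 113 TPM in the PRP libraries, 106, 101, 97.6 and 95.3 TPM in the plasma libraries and 106, 113, 114 and 106 TPM in the control libraries. Its log2 change was -0.05 ± 0.05 (SE) with PRP (limma adjusted p = 0.37) and -0.14 ± 0.05 with plasma (limma adjusted p = 0.0232), and the difference between the treated groups was 0.09 ± 0.05 (limma adjusted p = 0.684). The plasma call was lost in reads (limma voom adjusted p = 0.0702), after centring each library on its median gene (limma adjusted p = 0.214) and in 4 of 12 fits without 1 library.

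In the small subunit MRPS15 (chromosome 1, 36455718 to 36464437) fell most. Its relative S15 binds the bacterial rRNA early in assembly. MRPS15 had 145, 141, 142 and 152 TPM in the PRP libraries, 154, 151, 156 and 139 TPM in the plasma libraries and 178, 174, 179.7 and 176 TPM in the control libraries. Control formed a narrow band above both treated groups. MRPS15 changed by -0.29 ± 0.04 (SE) with PRP (limma adjusted p = 3.22e-05) and -0.24 ± 0.04 with plasma (limma adjusted p = 0.000189). MRPS27 (chromosome 5, 72219409 to 72320646) is a pentatricopeptide repeat protein, of a family that binds RNA. MRPS27 had 67.7, 66.8, 65.7 and 64.7 TPM in the PRP libraries, 69.0, 66.0, 65.1 and 68.1 TPM in the plasma libraries and 77.9, 76.5, 73.4 and 77.5 TPM in the control libraries. Treated and control libraries were separate. The log2 change of MRPS27 was -0.20 ± 0.04 (SE) with PRP (limma adjusted p = 0.000292) and -0.18 ± 0.04 with plasma (limma adjusted p = 0.000688).

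MRPS30 (chromosome 5, 44808925 to 44820428) carries a small-subunit name, but its protein sits in the large subunit in solved structures. MRPS30 had 24.9, 28.0, 25.0 and 27.4 TPM in the PRP libraries, 28.6, 27.6, 26.2 and 26.1 TPM in the plasma libraries and 30.2, 29.5, 31.1 and 30.4 TPM in the control libraries. The 2 treated groups overlapped, and both lay below control. MRPS30 changed by -0.20 ± 0.05 (SE) with PRP (limma adjusted p = 0.00478) and -0.16 ± 0.05 with plasma (limma adjusted p = 0.0209). The plasma call was lost in reads (limma voom adjusted p = 0.138), after centring each library on its median gene (limma adjusted p = 0.135) and in 3 of 12 fits without 1 library.

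The MRPS18 paralogs are 3 genes from one bacterial ancestor, S18, whose proteins occupy different places in the ribosome. MRPS18A sits in the large subunit, and MRPS18B and MRPS18C sit at separate sites of the small subunit. MRPS18A had 66.7, 64.7, 68.3 and 67.0 TPM in the PRP libraries, 68.1, 70.1, 62.9 and 64.7 TPM in the plasma libraries and 61.7, 57.6, 61.8 and 54.8 TPM in the control libraries. Both treated groups lay above control, and MRPS18A changed by 0.18 ± 0.05 (SE) with PRP (limma adjusted p = 0.00641) and 0.17 ± 0.05 with plasma (limma adjusted p = 0.00884). MRPS18B had 176, 175, 177 and 169.6 TPM in the PRP libraries, 189, 187, 184 and 191 TPM in the plasma libraries and 192, 187, 186 and 186 TPM in the control libraries. PRP lay below both other groups, which overlapped. MRPS18B changed by -0.11 ± 0.03 (SE) with PRP (limma adjusted p = 0.00648) and 0.00 ± 0.03 with plasma (limma adjusted p = 0.963), and in reads by -0.04 (limma voom adjusted p = 0.298) with PRP, and the PRP call was also lost after centring (limma adjusted p = 0.325).

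MRPS18C was the least abundant of the paralogs. MRPS18C had 23.4, 24.3, 29.0 and 29.2 TPM in the PRP libraries, 22.2, 31.3, 30.3 and 27.3 TPM in the plasma libraries and 30.9, 28.4, 28.4 and 30.9 TPM in the control libraries. Plasma replicate 1 was the lowest library, and the groups overlapped. Its log2 change was -0.16 ± 0.10 (SE) with PRP (limma adjusted p = 0.18) and -0.10 ± 0.10 with plasma (limma adjusted p = 0.42). Of the summed TPM of the 3 paralogs, MRPS18A made up 24.9% ± 0.300 with PRP, 23.6% ± 0.904 with plasma and 21.3% ± 0.959 in control (SD, n = 4 each). The ratio of MRPS18B to MRPS18A was 2.53 to 2.70 with PRP, 2.67 to 2.95 with plasma and 3.002 to 3.40 in control. The treated libraries did not overlap control in this ratio, whereas PRP and plasma did overlap. MRPS18A shares 47.0% of its exonic bases with RSPH9, which was not tested, and MRPS18C 40.2% with ABRAXAS1.

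Both subunits held more rises than falls. By gene name, 26 of 49 large-subunit genes rose (53.1%) and 5 fell (10.2%) with PRP. Of 28 small-subunit genes 12 rose (42.9%) and 4 fell (14.3%), while 21.7% of all tested genes rose and 31.5% fell. With plasma the counts were 23 and 7 of 49 (46.9% and 14.3%), and 12 and 3 of 28 (42.9% and 10.7%). Of all tested genes 20.3% rose and 29.0% fell with plasma. Structures place MRPS30 and MRPS18A in the large subunit. On that basis 27 of 51 rose and 6 fell with PRP, against 11 and 3 of 26 in the small subunit. The median log2 change was 0.11 for the large and 0.08 for the small subunit with PRP, and 0.10 and 0.07 with plasma.

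Split by place in the ribosome, 22 of 46 genes with a bacterial relative at the same place rose and 3 fell with PRP, and 16 of 31 mitochondria-specific genes rose and 6 fell. With plasma the counts were 20 and 4 of 46, and 15 and 6 of 31. The share that fell was 6.52% and 19.4% with PRP, against 31.5% of all tested genes. With plasma it was 8.70% and 19.4%, against 29.0%. The 31 include MRPS18A and MRPS18B, which descend from S18 but sit at places with no bacterial counterpart. These shares of small groups were not tested against each other.

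The summed level of the 77 genes was 7086 ± 47.3 TPM with PRP, 6933 ± 85.0 TPM with plasma and 6554 ± 105 TPM in control (SD, n = 4 each). The 4 libraries had 7082, 7058, 7154 and 7049.8 TPM with PRP, 6915, 7033, 6957 and 6829 TPM with plasma and 6639.7, 6402, 6608 and 6564 TPM in control. On this scale no library of one group lay inside the range of another. In reads (CPM) the sum was 3891 to 4073 with PRP, 3824 to 4043 with plasma and 3586 to 3808 in control, where PRP and plasma overlapped and both lay above control. The large-subunit sum was 4868 ± 40.0 TPM with PRP, 4725 ± 72.7 TPM with plasma and 4464 ± 66.6 TPM in control. The small-subunit sum was 2218 ± 16.5, 2208 ± 13.1 and 2089.5 ± 45.7 TPM in the same groups, and here PRP and plasma overlapped.

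The ratio of the large-subunit to the small-subunit sum separated no group from the others in TPM. It was 2.17, 2.20, 2.21 and 2.20 in the PRP libraries, 2.13, 2.17, 2.15 and 2.12 in the plasma libraries and 2.10, 2.15, 2.17 and 2.13 in the control libraries. All 3 groups overlapped. In reads the ratio was 1.69 to 1.72 with PRP, 1.66 to 1.7035 with plasma and 1.66 to 1.69 in control, and there every PRP library lay above every control library, while plasma overlapped both. A sum is set mostly by the abundant genes, and the median over the 77 genes was 81.0 ± 0.860 TPM with PRP, 78.0 ± 1.36 TPM with plasma and 69.2 ± 1.80 TPM in control.

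**Figure D3:**
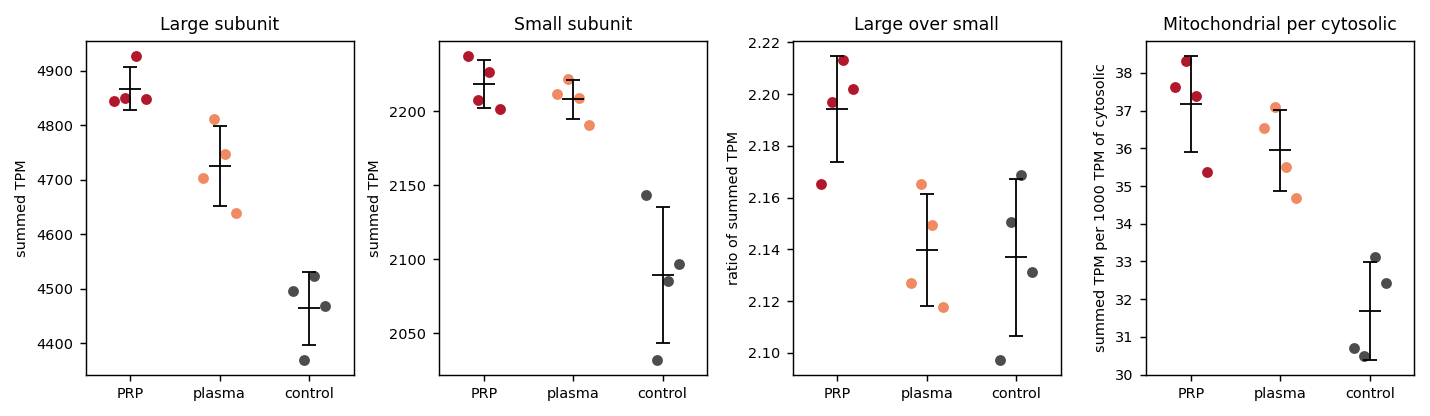
Summed TPM of the large-subunit and small-subunit genes by name, their ratio, and the sum of all 77 genes per 1000 TPM of cytosolic ribosomal protein genes, by group. Points are libraries, bars the mean and SD of 4, and the y axes do not start at 0. Control lies lowest in both sums and in the last panel, and the groups overlap in the ratio of large to small.

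Levels within the large subunit were more even in treated cells. The SD of log2(TPM + 1) across the 49 large-subunit genes was 0.917, 0.912, 0.907 and 0.899 in the PRP libraries, 0.908, 0.918, 0.904 and 0.895 in the plasma libraries and 1.05, 1.01, 1.03 and 1.01 in the control libraries. All treated libraries lay below all control libraries. The same SD across the 28 small-subunit genes was 1.04 to 1.08 with PRP, 1.03 to 1.07 with plasma and 1.06 to 1.09 in control, and overlapped. Across all tested genes it was 2.02 to 2.04 with PRP, 2.02 to 2.03 with plasma and 1.98 to 2.01 in control, higher in treated libraries. In control MRPL48, which rose, was the least abundant large-subunit gene, and MRPL49, which fell, the second most abundant.

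No member passed the threshold between the 2 treatments. PRP against plasma called 0 of the 77 genes in either direction with limma, against 0.0639% of tested genes called higher and 0.00% lower, 8 genes in all. At an unadjusted p under 0.05 there were 6 members, against 7.98% of tested genes, and limma's voom on reads called 0 as well. All 4 PRP libraries lay above all plasma libraries for 6 members and below for 1, against 2.63% and 2.59% of tested genes.

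The smallest p-values were those of MRPS18B, MRPL54 and MRPL41, whose values are given above. The log2 difference was -0.11 ± 0.03 (SE, limma adjusted p = 0.292) for MRPS18B, with PRP wholly below plasma. It was 0.21 ± 0.07 (limma adjusted p = 0.424) for MRPL54 and 0.18 ± 0.06 (limma adjusted p = 0.443) for MRPL41, with PRP wholly above plasma. Over the 77 genes the difference ran from -0.11 to 0.21 with a median of 0.03, against -0.00 for all tested genes. A p-value over the threshold does not show that the 2 treatments gave equal levels.

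The name rule misses 5 proteins of the mitochondrial ribosome that have other symbols. GADD45GIP1, a large-subunit protein also known to bind cell cycle regulators, averaged 41.9 ± 2.38 TPM with PRP, 38.8 ± 3.17 TPM with plasma and 27.9 ± 0.738 TPM in control. It changed by 0.57 with PRP (limma adjusted p = 2.98e-06) and 0.46 with plasma (limma adjusted p = 2.61e-05). CHCHD1, of the small subunit, averaged 69.1 ± 1.06 TPM with PRP, 63.0 ± 3.27 TPM with plasma and 51.4 ± 4.19 TPM in control and changed by 0.42 with PRP (limma adjusted p = 1.97e-05) and 0.29 with plasma (limma adjusted p = 0.000534). DAP3, a GTP-binding small-subunit protein named for a part in cell death, averaged 100 ± 2.68 TPM with PRP, 100.3 ± 4.73 TPM with plasma and 126 ± 5.90 TPM in control and changed by -0.33 with PRP (limma adjusted p = 2.36e-05) and -0.33 with plasma (limma adjusted p = 3.2e-05). PTCD3 and AURKAIP1, both of the small subunit, did not pass, with log2 changes of 0.02 and 0.03 with PRP and -0.05 and -0.01 with plasma.

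Genes that build the ribosome moved in both directions. Of 30 assembly factors, 6 rose and 4 fell with PRP, and 5 rose and 5 fell with plasma, with median log2 changes of 0.04 and 0.02. The shares that rose, 20% with PRP and 16.7% with plasma, lie near those of all tested genes (21.7% with PRP, 20.3% with plasma). In reads by limma's voom 10 rose with PRP and 9 with plasma, and after centring 9 rose with plasma. More of all tested genes rose in those settings too. In reads, 50.4% of 7543 called genes were higher with PRP and 50.9% of 7095 with plasma. After centring it was 54.1% of 6112 with plasma. ERAL1, a chaperone of the small-subunit rRNA, averaged 58.5 ± 1.11 TPM with PRP, 56.3 ± 2.11 TPM with plasma and 34.8 ± 1.82 TPM in control and changed by 0.73 with PRP (limma adjusted p = 2.47e-08) and 0.68 with plasma (limma adjusted p = 6.49e-08). NDUFAB1, the mitochondrial acyl carrier protein, which also belongs to respiratory complex I, changed by 0.44 with PRP (limma adjusted p = 6.19e-06) and 0.38 with plasma (limma adjusted p = 2.76e-05). MPV17L2, an inner-membrane protein needed for ribosome biogenesis, changed by -0.16 with PRP (limma adjusted p = 0.033) and -0.38 with plasma (limma adjusted p = 0.000121).

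Of 17 translation factors, 3 rose and 6 fell with PRP, and 3 rose and 4 fell with plasma. The share that rose, 17.6% with both, and the shares that fell, 35.3% with PRP and 23.5% with plasma, lie near those of all tested genes. After centring, and also in reads, 5 rose in each comparison, where more of all tested genes rose too. TACO1, an activator of the synthesis of cytochrome oxidase subunit 1, averaged 42.7 ± 2.09 TPM with PRP, 40.4 ± 1.31 TPM with plasma and 23.4 ± 1.47 TPM in control and changed by 0.84 with PRP (limma adjusted p = 2.97e-08) and 0.76 with plasma (limma adjusted p = 8.99e-08). MTRF1 and MTRFR, of the release factor family, went the other way. MTRF1 changed by -0.51 with PRP (limma adjusted p = 2.49e-05) and -0.46 with plasma (limma adjusted p = 7.24e-05), and MTRFR by -0.47 with PRP (limma adjusted p = 9.34e-06) and -0.45 with plasma (limma adjusted p = 2.01e-05). The median log2 change of the list was -0.02 with PRP and -0.00 with plasma.

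Of 20 genes for mitochondrial RNA synthesis and maintenance, 8 rose and 4 fell with PRP, and 7 rose and 2 fell with plasma. The shares that rose were 40% with PRP and 35% with plasma, against 21.7% and 20.3% of all tested genes. The shares that fell were 20% and 10%, against 31.5% and 29.0%. After centring, and also in reads, 2 fell with PRP and 1 with plasma, where fewer of all tested genes fell too. Without single libraries 2 to 4 fell with PRP and 1 to 2 with plasma. SLIRP, which stabilises mitochondrial mRNAs together with LRPPRC, changed by 0.36 with PRP (limma adjusted p = 8.94e-05) and 0.24 with plasma (limma adjusted p = 0.00281). FASTK, a mitochondrial RNA-binding protein, changed by 0.46 with PRP (limma adjusted p = 4.63e-06) and 0.41 with plasma (limma adjusted p = 1.95e-05). PRORP, the nuclease subunit of mitochondrial RNase P, changed by -0.57 with PRP (limma adjusted p = 1.86e-05) and -0.53 with plasma (limma adjusted p = 4.17e-05).

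The 13 mRNAs made from mitochondrial DNA, the templates of this ribosome, had no call in either direction with limma in either comparison, and without the 3 libraries numbered 1 there was 1 lower with PRP. Their median log2 change was -0.37 with PRP and -0.23 with plasma. MT-CO1 averaged 1228 ± 489 TPM with PRP, 1349 ± 550.0 TPM with plasma and 2068 ± 913 TPM in control, with a range of 625 to 1797 TPM with PRP, 669 to 1952 TPM with plasma and 1042 to 2958 TPM in control, so its groups overlapped widely. With the replicate number as a block, 7 of the 13 were called lower with PRP and 5 with plasma.

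Nuclear genes of the respiratory chain and ATP synthase are the partners of the products of this ribosome. Of 78, 56 rose (71.8%) and 4 fell with PRP, and 59 rose (75.6%) and 4 fell with plasma, with a median log2 change of 0.22 in both. Of all tested genes, 21.7% rose with PRP and 20.3% with plasma. NDUFA1 of complex I averaged 281 ± 12.3 TPM with PRP, 263 ± 9.52 TPM with plasma and 155 ± 8.33 TPM in control and changed by 0.85 with PRP (limma adjusted p = 6.51e-09) and 0.75 with plasma (limma adjusted p = 2.52e-08). CYC1, cytochrome c1 of complex III, averaged 263 ± 8.40 TPM with PRP, 254 ± 6.43 TPM with plasma and 182 ± 3.54 TPM in control and changed by 0.52 with PRP (limma adjusted p = 2.9e-08) and 0.47 with plasma (limma adjusted p = 8.87e-08).

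Cytosolic ribosomal protein genes had mostly falls on the TPM scale, but their count depended on the scaling. Of 84 tested, 4 rose and 43 fell with PRP, and 3 rose and 37 fell with plasma. The shares that fell were 51.2% with PRP and 44.0% with plasma, against 31.5% and 29.0% of all tested genes. After centring each library on its median gene, 7 rose and 14 fell with PRP, and 7 rose and 13 fell with plasma. Centring called 6550 of all tested genes with PRP, 54.0% of them higher, and 6112 with plasma, 54.1% of them higher. Beside those calls, falls were no more frequent in this list than among all tested genes. Without the 3 libraries numbered 1, 22 fell with plasma. RPS15A averaged 1644 ± 41.2 TPM with PRP, 1664 ± 28.3 TPM with plasma and 2096 ± 92.2 TPM in control and changed by -0.35 with PRP (limma adjusted p = 1.74e-06) and -0.33 with plasma (limma adjusted p = 3.59e-06), and RPS26 changed by 0.48 with PRP (limma adjusted p = 5.25e-08) and 0.44 with plasma (limma adjusted p = 1.37e-07). The 77 mitochondrial genes together had 37.2 TPM per 1000 TPM of cytosolic ribosomal protein genes with PRP, 35.9 with plasma and 31.7 in control.

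**Figure D4:**
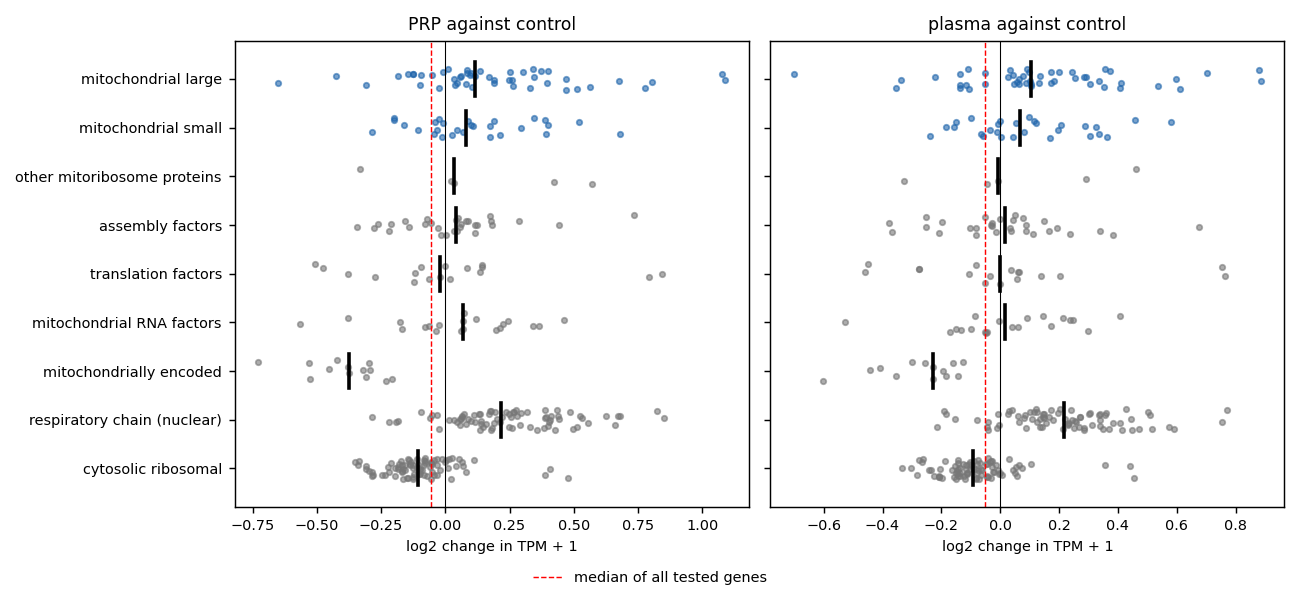
Log2 change in TPM + 1 (x axis) of each gene of the listed groups with PRP against control (left) and plasma against control (right), with the median of each group as a black bar. The dashed line is the median of all tested genes (-0.06 and -0.05). The medians of the mitochondrial large and small subunits (0.11 and 0.08 with PRP) lie between those of the cytosolic ribosomal (-0.11) and the nuclear respiratory chain genes (0.22).

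Known regulators of nuclear genes for mitochondria changed unevenly. Of 10 tested, 4 rose and 1 fell with PRP, and 2 rose and 1 fell with plasma. The share that rose was 40% with PRP, against 21.7% of all tested genes. With plasma it was 20%, near the 20.3% of all tested genes. Without single libraries between 1 and 3 rose in either comparison. After centring 4 rose with plasma, where more of all tested genes rose too. PPARGC1A and ESRRG did not reach the filter. GABPB1, a subunit of the ETS-family factor GABP, averaged 18.5 ± 0.364 TPM with PRP, 16.8 ± 1.12 TPM with plasma and 11.8 ± 1.05 TPM in control and changed by 0.61 with PRP (limma adjusted p = 3.86e-06) and 0.48 with plasma (limma adjusted p = 4.78e-05). GABPA, the subunit that binds DNA, changed by 0.06 with PRP (limma adjusted p = 0.357) and 0.02 with plasma (limma adjusted p = 0.772). NRF1 changed by 0.00 with PRP (limma adjusted p = 0.968) and -0.02 with plasma (limma adjusted p = 0.868), and YY1 by 0.03 with PRP (limma adjusted p = 0.541) and 0.04 with plasma (limma adjusted p = 0.396). ESRRA, a nuclear receptor that acts on mitochondrial genes, changed by -0.23 with PRP (limma adjusted p = 0.00328) and -0.19 with plasma (limma adjusted p = 0.0141). ESRRA was the only regulator of the list called lower with plasma, and that call was lost after centring and in reads.

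The TPM of 10 members could move with their estimated length, since their effective length differed between 2 groups by over 0.1 on the log2 scale. MRPL13 and MRPS25 were the ones among them for which TPM and reads disagreed in direction or in call. For others the change was smaller in reads than in TPM. In reads MRPL34 changed by -0.51 with PRP and -0.54 with plasma, and MRPS23 by 0.48 and 0.37. In the same order MRPL19 changed by 0.60 and 0.57, and MRPS16 by 0.34 and 0.27. MRPL13 had 83.3, 83.7, 87.6 and 84.8 TPM in the PRP libraries, 78.9, 82.5, 80.1 and 79.1 TPM in the plasma libraries and 84.2, 79.0, 88.7 and 94.4 TPM in the control libraries. The groups overlapped, with a log2 change of -0.03 ± 0.05 (SE) with PRP (limma adjusted p = 0.669) and -0.11 ± 0.05 with plasma (limma adjusted p = 0.0763). Its length was estimated longer by 0.11 with PRP and 0.14 with plasma, and in reads it changed by 0.15 (limma voom adjusted p = 0.0374) with PRP and 0.09 (limma voom adjusted p = 0.203) with plasma.

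MRPL42 had 61.2, 61.5, 67.4 and 56.5 TPM in the PRP libraries, 58.9, 68.0, 59.6 and 58.0 TPM in the plasma libraries and 57.9, 52.1, 55.9 and 61.4 TPM in the control libraries. MRPL42, mitochondria-specific, changed by 0.11 ± 0.07 (SE) with PRP (limma adjusted p = 0.153) and 0.10 ± 0.07 with plasma (limma adjusted p = 0.211) in TPM, and plasma replicate 2 stood above the others. In reads it changed by 0.05 (limma voom adjusted p = 0.332) with PRP and 0.00 (limma voom adjusted p = 0.998) with plasma. MRPS25 changed by -0.02 with PRP and -0.01 with plasma in TPM, and in reads by -0.14 (limma voom adjusted p = 0.181) with PRP and -0.24 (limma voom adjusted p = 0.0312) with plasma. Over the 77 genes, Spearman's rho between the log2 change in TPM and the shift in length was -0.41 with PRP and -0.35 with plasma, and for the change in reads it was -0.25 and -0.18. This is a description across genes, which are not independent replicates.

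**Figure D5:**
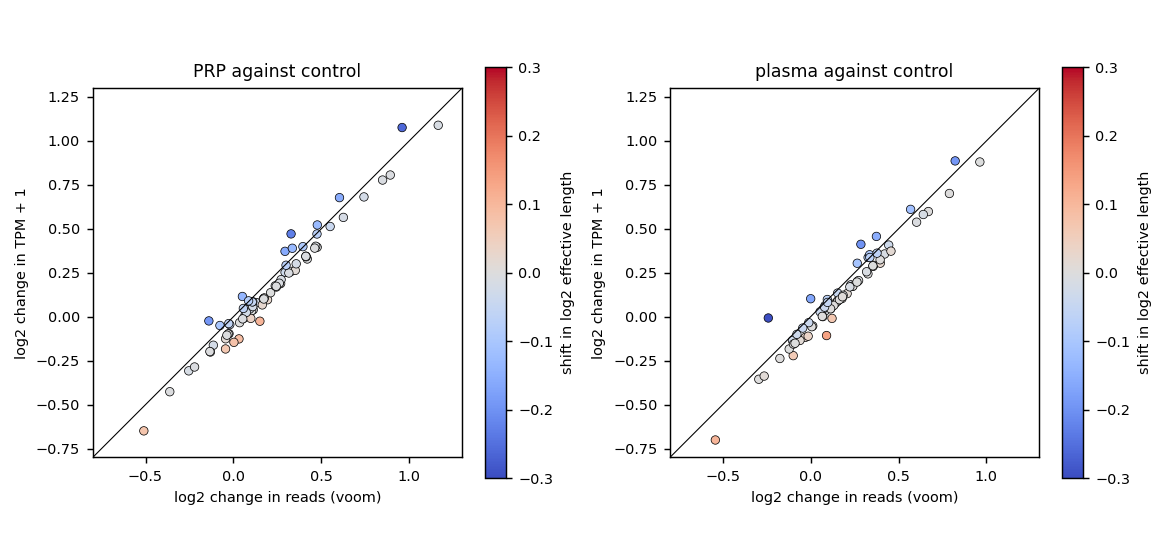
Log2 change in TPM + 1 (y axis) against log2 change in estimated reads by limma's voom (x axis) for each of the 77 genes, with PRP against control (left) and plasma against control (right). Colour gives the shift in log2 effective length, and the line marks equal changes. All points above the line have a shorter estimated length in treated libraries (blue), MRPL48 the bluest of the large rises with PRP.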

How the data were processed

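Per the labels' protocols, RNA was taken with the RNeasy kit, polyadenylated RNA captured and libraries made with the Watchmaker kit. The submitters' processing notes name Salmon and hg38; the version, the transcript set and the use of strand are not given in the sources used here. Per the file headers, each deposited file holds length, effective length, TPM and estimated counts of reads for 20375 genes, with decimal commas. The unit check could not read them as counts. No count model was run apart from limma's voom on the estimated reads, which served as a check. The deposited TPM followed from those counts and lengths for all 20375 genes, to within 1% plus 0.01 TPM.

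Log2(TPM + 1) of 12517 genes, each reaching 1 TPM in 4 or more libraries, was tested with limma-trend (limma version 3.58.1 under R version 4.3.3). The fit had a term for each group and 9 residual degrees of freedom over 12 libraries, and p-values were two-sided, adjusted after Benjamini and Hochberg over all genes, with a threshold of 0.05. Log2 changes on this scale understate the change of low genes. Alternatives were limma's voom on estimated reads with median-of-ratios scaling, CPM, centring each library on its median gene, pseudocounts of 0.1 and 5, other filters, a constant prior variance, a replicate block, only the 8 libraries compared, and libraries left out. The scripts were tested on simulated data.

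The members and lists were chosen with earlier results of these data known. Values in every library are given for the members with up to 8 largest non-overlapping changes in each direction, the 3 smallest p-values of PRP against plasma, a set with particular roles, the 3 most and 3 least abundant, and those with a length shift over 0.1. From each other list the genes with the lowest adjusted p, at most 3, were eligible, and YY1, NRF1, GABPA, PTCD3 and AURKAIP1 were added after their values were seen. MRPL39 and MRPL47 were also named after their values were seen. So were MRPL21, MRPL36, MRPL46, MRPL57, MRPS11 and MRPS34, which were picked from the pairs of neighbouring genes. Some marker genes are not reported here. Coordinates are from GENCODE 29 (GRCh38). Annotated pseudogenes, 70 in number, carry the names of 33 members, and 14 members share over 10% of their exonic bases with another measured gene; how reads were split among them is not given. No pair of replicates agreed within counting noise (chi-square per gene 3.93 to 34.8 over 18 pairs).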

Additional observations from a re-analysis of the deposited data

Results flagged for a closer look

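In 7 of 120 groups of 4 libraries, 1 library stood far from the other 3 by Dixon's test at 95%, where chance gives about 1 in 20, or 6. MRPL42 had 68.0 TPM in plasma replicate 2 and 58.0 to 59.6 TPM in the other plasma libraries. MRPL48, which shows the second largest rise with PRP, had 17.1 TPM in plasma replicate 1 and 20.2 to 20.7 TPM in the others. MRPL49, among the members that fell, had 229.7 TPM in PRP replicate 3 and 236 to 237 TPM in the other PRP libraries, and 214 TPM in plasma replicate 4 and 234 to 237 TPM in the other plasma libraries. MRPL58 had 91.5 TPM in PRP replicate 2 and 97.2 to 98.0 TPM in the others. MRPS24 had 294 TPM in plasma replicate 2 and 269 to 272 TPM in the others. The summed level of the large-subunit genes was 4927 TPM in PRP replicate 3 and 4844 to 4851 TPM in the other PRP libraries.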

How the results depend on the processing

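The count of members higher stayed between 35 and 45 with PRP and 32 and 41 with plasma over the scalings, filters and settings run, and between 35 and 38 with PRP and 32 and 36 with plasma without 1 library. Members lower with plasma numbered 6, against 10, with centring and with voom, and ranged from 6 to 11 without 1 library (6 without control replicate 3, plasma replicate 3 or plasma replicate 4). Respiratory chain genes lower were 2 with centring in both comparisons and 2 with plasma without the 3 libraries numbered 1. Cytosolic ribosomal genes higher were 7 (centring) and 7 (voom) with PRP and 7 (centring), 9 (voom) and 7 (CPM) with plasma; lower, they were 14 (centring) and 26 (voom) with PRP and 13 (centring), 20 (voom) and 22 (without the libraries numbered 1) with plasma. Without 1 library the cytosolic genes higher with plasma were 3 to 5. PRP against plasma called 4 genes with no filter, 16 from its 8 libraries alone, 2 without the libraries numbered 1, 4 with a constant prior, and 4 to 14 without 1 library. The log2 ratio of the summed level was 0.11 with PRP and 0.08 with plasma; it was 0.23 with PRP and 0.17 with plasma by the median of members and 0.18 and 0.14 over the median gene, and PRP against plasma 0.0546 by the median (0.0314 by the sum). The log2 ratio of large to small was 0.04 with PRP and 0.00 with plasma by sums, and 0.00772 with PRP and -0.0311 with plasma by medians. Changes close to 0 that turned sign were, with plasma, MRPL13 (0.0905 voom, 0.0622 CPM), MRPL42 (-0.0268 CPM), MRPL44 (0.00358 centring, 0.0119 voom), MRPS18C (0.0182 without the libraries numbered 1) and MRPS25 (0.0488 centring). With PRP they were MRPL13 (0.0382 centring, 0.150 voom, 0.112 CPM), MRPL50 (0.0560 centring, 0.0607 voom, 0.0255 CPM), MRPL52 (0.0138 centring) and MRPS25 (0.0399 centring). Without 1 library the change ranged with plasma from -0.00625 to 0.0125 for MRPS18B and -0.0859 to 0.115 for MRPS25, and with PRP from -0.0686 to 0.0165 for MRPL13, -0.0651 to 0.0368 for MRPL50 and -0.108 to 0.0522 for MRPS25. Among called members the sign changed for 1, MRPL47 with PRP (-0.15 in TPM and 0.00 in reads). The YY1 share was 10.1% and that of any motif 47.8% in the 250 bases before the start. Other causes of these shifts were not tested. Replicate numbers were not taken to pair the libraries, since no label says that they do. Over all tested genes the deviations of same-numbered libraries correlated at -0.07 to 0.30 (5 of 12 over 0.1), against -0.22 to 0.20 for libraries of different number. Of the 12 libraries, 4 correlated best with their own number in both other groups. In each group replicates 3 and 4 differed least in reads, and replicate 1 differed most from 3 and 4. Whether the numbers mark a shared source was not tested. A replicate block gave 39 members higher and 9 lower with PRP, 38 and 10 with plasma, and 0 for PRP against plasma.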

Other observations

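Of the 77 genes, 17 (22.1%) had another gene starting within 1000 bases on the opposite strand, facing away, against 9.64% of 11955 tested protein-coding genes. In 1 such pair both genes are members: the starts of MRPL46, a large-subunit gene, and MRPS11, a small-subunit gene, lie 34 bases apart. MRPL46 rose by 0.40 with PRP (limma adjusted p = 3.98e-05) and 0.36 with plasma (limma adjusted p = 0.000118), and MRPS11 by 0.29 with PRP (limma adjusted p = 0.000492) and 0.34 with plasma (limma adjusted p = 0.000187). MRPL36, which did not pass, lies 34 bases from NDUFS6 of complex I, which rose by 0.41 with PRP and 0.27 with plasma.

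In some other pairs the partner went the other way, where 31.5% of all tested genes fell with PRP and 29.0% with plasma. In others it did not: APBA3, SKA3 and NDUFB5, beside MRPL54, MRPL57 and MRPL47, passed in neither comparison. Some partners were not tested. MRPL30 rose by 0.47 with PRP and 0.35 with plasma, and MITD1, whose start lies 21 bases away, fell by 0.44 with PRP (limma adjusted p = 0.000322) and 0.25 with plasma (limma adjusted p = 0.0171). MRPL21 rose by 0.17 with PRP and 0.10 with plasma, and IGHMBP2, 7 bases away, fell by 0.46 with PRP and 0.44 with plasma. MRPS34 rose by 0.34 with PRP and 0.29 with plasma, and EME2, 52 bases away, fell by 0.73 with PRP and 0.63 with plasma. MRPL18 rose by 0.11 with PRP, and TCP1, a subunit of the cytosolic chaperonin 63 bases away, fell by 0.35 with PRP and 0.34 with plasma. Without strand in the counting, reads of neighbours whose transcripts overlap cannot be told apart.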
